A study of Homo sapiens with 12 samples.

Results

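Knockdown of p53 was compared with the pLKO.1 control vector in untreated PEO1 cells, using 6 of the 12 RNA sequencing libraries of the series. The groups were chosen by their labels alone: libraries 1 to 3 of PEO1 cells carrying that vector at 0 h, and libraries 1 to 3 of PEO1 cells carrying a short hairpin RNA against p53 (shp53) at 0 h. The titles of these libraries also carry the drug's name, but their treatment field reads "unt", taken here as untreated. PEO1 is an established line of high-grade serous ovarian carcinoma. Both groups grew in RPMI-1640 with 10% serum and 2 μg/mL puromycin, which selects for the vector. The other 6 libraries come from the same cell lines after 48 h in 10 μM fulvestrant, an estrogen receptor antagonist, with 100 pM estradiol (E2), and are used here to ask which differences were also present in a second set of samples. The study concerns how mutant p53 bears on the activity of estrogen receptor alpha. The labels name 1 construct, shp53, and the hairpin's sequence was not given in the sources used here. Nor do they say whether each line is a pool or a clone, or whether the untreated cells received estradiol.

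Wild-type p53 is a transcription factor that binds response elements near genes of cell-cycle arrest, DNA repair and apoptosis and activates them. It is held low by MDM2, a ubiquitin ligase that is itself a p53 target. Missense mutants of p53, common in high-grade serous ovarian carcinoma, typically accumulate as proteins with impaired binding to the canonical elements. Such proteins can still associate with other transcription factors, and the estrogen receptor, a ligand-activated transcription factor, is one of those studied.

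The untreated libraries held 22741703 to 28481541 counts, and 15715 genes had enough counts to be tested. Levels are given as CPM, counts divided by library size after normalization for library composition, and differences are log2 fold changes of knockdown over control with an approximate standard error (SE). Adjusted p-values come from edgeR's quasi-likelihood test with Benjamini-Hochberg adjustment over all tested genes, and a gene is called below 0.05 in this fit unless another fit is named. The labels do not state whether replicate libraries are separate cultures. The p-values therefore reflect the variation among these libraries alone, and that may be technical. In a principal component analysis of the 6 libraries, the first component (40.5% of the variance) followed the replicate number and the second (22.7%) separated knockdown from control. The Müllerian marker PAX8, the lineage factor of these tumours, was at 89.2, 104 and 121 CPM in control and 89.5, 95.8 and 107 CPM in knockdown libraries. The epithelial marker EPCAM lay between 376 and 453 CPM in all 6. Not every such marker was present: of 36 epithelial genes 35 had enough counts to be tested, and of 25 ovarian carcinoma markers 18. Of those 25, 4 were at 0 in all 6 libraries.

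Of 15715 tested genes, 249 were called (1.58%), of which 160 were higher (1.02%) and 89 lower (0.566%) in knockdown. In all 249 the 3 knockdown libraries lay entirely above or below the 3 controls, whereas 16.2% of all tested genes had such groups. Most differences were small. The median called rise was 0.57 and the median called fall -0.47 on the log2 scale, only 34 genes changed by at least 1 log2 unit (28 higher, 6 lower), and 93.9% of all tested genes had fitted changes under 0.5. The balance varied with expression level: among the 3929 genes of lowest mean level 24 were higher and 2 lower, and among the 3929 of highest level 37 were higher and 37 lower. Protein-coding genes made up 153 of the higher and 88 of the lower calls.

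**Figure D1:**
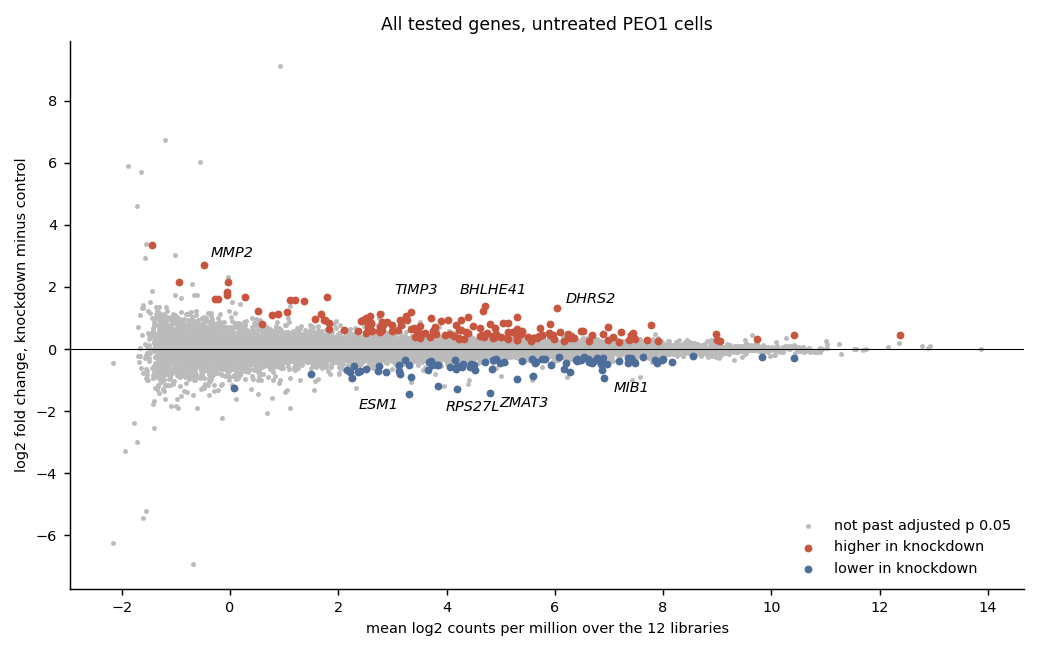
Log2 fold change of knockdown over control (vertical axis) against mean log2 CPM over the 12 libraries (horizontal axis) for 15715 genes, with the 160 higher genes in red and the 89 lower genes in blue. The targeted gene is not drawn, and the uncalled points beyond 4 log2 units in either direction are genes of low level, with a mean log2 CPM under 1.

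Leaving out each untreated library in turn gave 126 to 189 calls, of which 126 to 172 were among the 249, and 104 of the 249 genes (67 higher, 37 lower) were called in all 6 of those fits. The calls were fewest without control library 2 (126), knockdown library 2 (127) and knockdown library 1 (133). Genes differed by GC content as well: over 15373 genes the fold change had a Spearman correlation of -0.18 with GC content, and removing a GC trend from each library raised the calls to 999 and lowered the share that was higher from 64.26% to 52.25% (522 higher, 477 lower). That fit called 3.32% of all genes higher and 3.04% lower, and where it changes a list count reported here by over 1.5 times, that count is given beside the list. At an unadjusted p under 0.05, 5.82% of all genes were higher and 3.89% lower, and DESeq2 called 1.09% higher and 0.649% lower. Each list count below stands against the share of all genes for its own fit, given here and above. The part of GC content in the individual results was not tested beyond this fit.

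Among 51 tested targets of p53, 4 fell and none rose, against 0.566% of all genes that were lower. The count depended on the fit: with GC correction 12 were lower and 1 higher (9 or 10 lower and 1 higher with a replicate block added), and DESeq2 called 5 lower and 1 higher. With a block within each treatment 2 were lower. ZMAT3, an RNA-binding regulator of splicing, was at 32.5, 29.5 and 30.8 CPM in control and 12.3, 11.8 and 10.8 CPM in knockdown libraries. It fell by a factor of 2.66 (log2 fold change -1.41 ± 0.071 SE with edgeR adjusted p = 6.6e-06). RPS27L, a ribosomal protein paralog induced by p53, was at 25.8, 25.6 and 23.3 CPM and then at 10.1, 10.7 and 9.65 CPM (log2 fold change -1.29 ± 0.11 SE with edgeR adjusted p = 1.9e-04). These 2 genes had groups separated by more than 2-fold and kept their calls without any 1 library and under every other setting tried.

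RPS27 is the near-identical housekeeping paralog of RPS27L, and reads of the copies may be shared. It was at 478, 461 and 430.3 CPM in control and 470.2, 438 and 411 CPM in knockdown libraries, and the groups overlapped (log2 fold change -0.05 with edgeR adjusted p = 1.00). Because this copy is far more abundant, a shift of reads as large as the whole fall of RPS27L would be small beside its level, so its values do not show whether reads were shared.

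DDB2, the damage-recognition subunit of nucleotide excision repair, was at 28.4, 29.5 and 26.9 CPM and then 17.5, 19.6 and 19.6 CPM (log2 fold change -0.58 ± 0.091 SE with edgeR adjusted p = 0.0082). Without control library 2 or knockdown library 1 its adjusted p was 0.051 and 0.05. DRAM1, a lysosomal membrane protein linked to autophagy, fell from 219.6, 198 and 187 CPM to 165, 155 and 151 CPM (log2 fold change -0.36 ± 0.069 SE with edgeR adjusted p = 0.026). Its call was lost without any library other than control library 3 (adjusted p 0.058 to 0.13).

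Neither CDKN1A nor MDM2, among the best-known p53 targets, was called. CDKN1A, the cyclin-dependent kinase inhibitor p21, was at 7.68, 9.09 and 9.27 CPM and 5.67, 6.24 and 7.07 CPM. All 3 knockdown values lay below the controls, but the difference did not pass the test (log2 fold change -0.46 ± 0.13 SE with edgeR adjusted p = 0.15). CDKN1A was called lower in 1 of the 18 alternatives, with GC correction (edgeR adjusted p = 0.040). MDM2 overlapped between groups at 88.6, 84.8 and 77.1 CPM and 86.4, 82.2 and 78.7 CPM (log2 fold change -0.02). Over the whole list the median log2 fold change was -0.093 against -0.0068 over all genes, with 38 members below 0 and 13 above, and the summed level was 2800 to 2837 CPM in control and 2643 to 2732 CPM in knockdown libraries. At an unadjusted p under 0.05, 12 members were lower and 2 higher.

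TP63, the p53 family member of stratified epithelia, rose: it was at 8.36, 6.75 and 6.58 CPM in control and 11.03, 11.3 and 11.3 CPM in knockdown libraries (log2 fold change 0.63 ± 0.11 SE with edgeR adjusted p = 0.019). Its groups were separate, though control library 1 came closest, and the call held only without control library 1 (adjusted p 0.071 to 0.12 without each of the other 5).

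**Figure D2:**
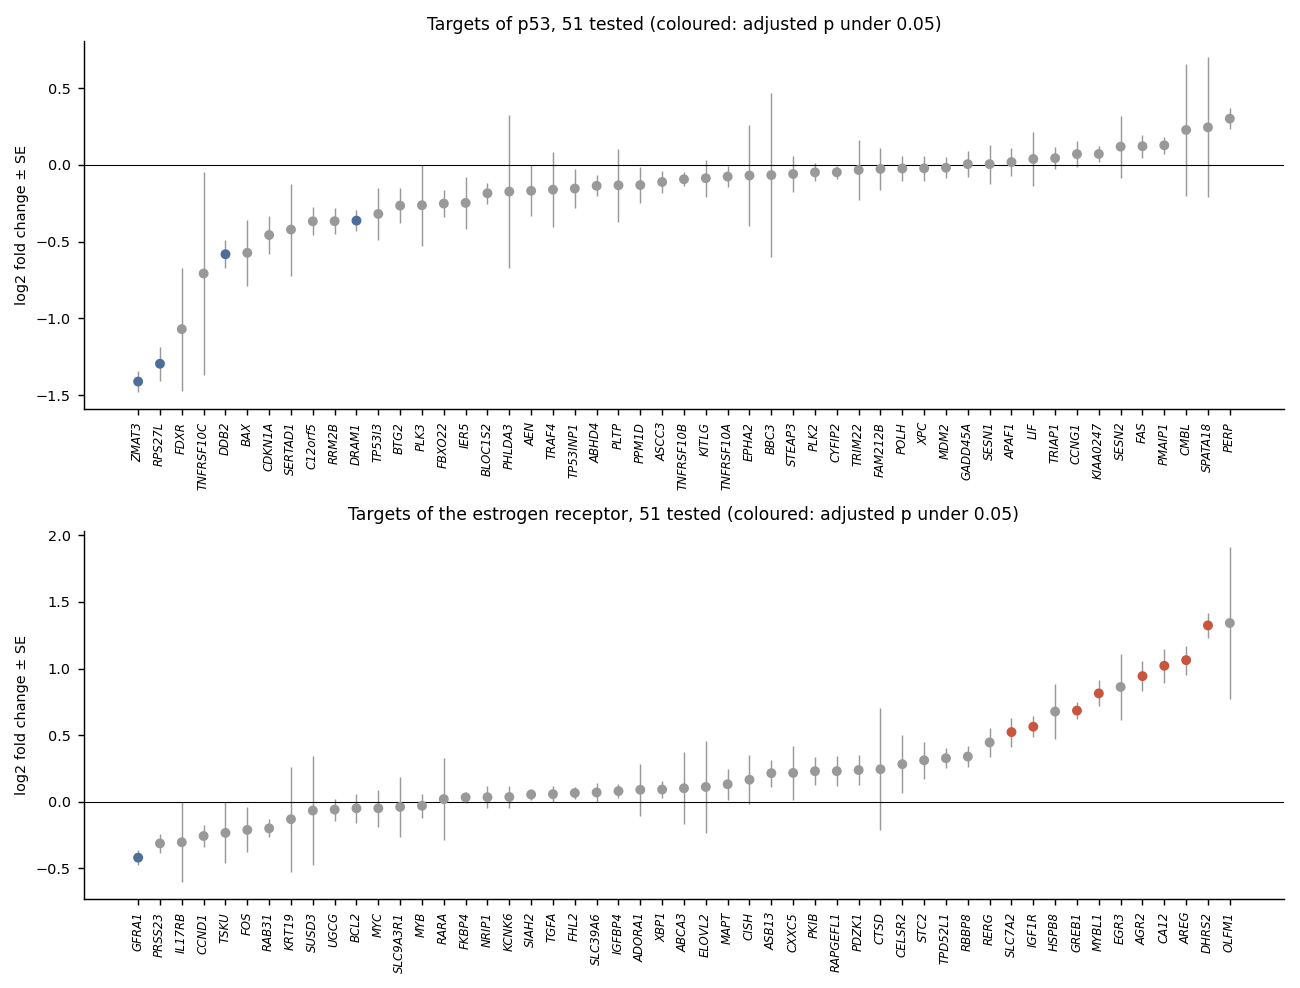
Log2 fold change with its standard error (vertical axis, 6 untreated libraries) for each tested target of p53 (upper panel) and of the estrogen receptor (lower panel), ordered by value; called genes are coloured. In the upper panel 4 of 51 targets are called, all lower, led by ZMAT3 and RPS27L; in the lower panel 8 of 51 are called higher and 1 lower.

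Calls among estrogen receptor targets were mostly upward: of 51 tested, 8 rose and 1 fell, against 1.02% and 0.566% of all genes. The median was 0.10, and 37 members lay above 0. DHRS2, a short-chain dehydrogenase, was at 61.7, 67.4 and 65.9 CPM in control and 165, 165 and 158 CPM in knockdown libraries (2.503-fold, log2 fold change 1.32 ± 0.095 SE with edgeR adjusted p = 7.5e-05). CA12, a membrane carbonic anhydrase, was at 30.01, 25.4 and 26.1 CPM and then 58.5, 52.7 and 54.1 CPM (log2 fold change 1.02 ± 0.13 SE with edgeR adjusted p = 0.0021). AGR2, a disulfide isomerase of the secretory pathway, was at 3.13, 2.65 and 2.69 CPM and 5.52, 5.85 and 4.96 CPM (log2 fold change 0.94 ± 0.11 SE with edgeR adjusted p = 0.0017). In all 3 the lowest knockdown library was well above the highest control. With GC correction 13 members were higher and 3 lower.

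GREB1, a receptor cofactor and one of the most direct estrogen-induced genes, rose from 41.00, 44.1 and 38.5 CPM to 64.1, 65.4 and 69.05 CPM (log2 fold change 0.68 ± 0.065 SE with edgeR adjusted p = 3.6e-04). The other called targets were named after their values were seen. MYBL1, a MYB family transcription factor, rose with a log2 fold change of 0.81 with edgeR adjusted p = 0.0017 and IGF1R, the receptor of insulin-like growth factors, with one of 0.56 (edgeR adjusted p = 0.0052). SLC7A2, a cationic amino acid transporter, had a log2 fold change of 0.52 with edgeR adjusted p = 0.042. Its call was lost without any 1 of the 6 libraries (adjusted p 0.069 to 0.18) and with a block for the replicate number (adjusted p = 0.062). GFRA1, a co-receptor of glial cell line-derived factors, was the 1 target that fell (log2 fold change -0.42 ± 0.054 SE with edgeR adjusted p = 0.0027).

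The receptor gene and its partners changed less. ESR1, which encodes estrogen receptor alpha, was at 141, 131 and 129.9 CPM in control and 169, 162 and 161 CPM in knockdown libraries (1.22-fold, log2 fold change 0.29 ± 0.046 SE with edgeR adjusted p = 0.0087). Its adjusted p was 0.053 to 0.064 without control library 2 or knockdown library 1. Of 23 tested receptor and coregulator genes 2 were called, both higher, against 1.02% of all genes, and the median was 0.028.

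Among 15 tested members of the EGFR family, only 2 ligands were called, both higher, against 1.02% of all genes, and no receptor was. AREG encodes amphiregulin and is also an estrogen target. It was at 6.36, 5.39 and 5.73 CPM in control and 12.3, 12.4 and 11.8 CPM in knockdown libraries (log2 fold change 1.06 ± 0.11 SE with edgeR adjusted p = 5.9e-04). EREG, which encodes epiregulin and lies beside AREG in the genome, was at 1.21, 1.24 and 1.42 CPM and 3.11, 3.77 and 2.26 CPM (log2 fold change 1.24 ± 0.23 SE with edgeR adjusted p = 0.022). Its knockdown libraries spread widely, its adjusted p was 0.075 to 0.12 without any 1 library but knockdown library 3, and it was 0.056 with a block for the replicate number. With GC correction 2 members were higher and 2 lower.

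Of 45 tested ligands of the FGF, IGF, WNT and TGF-beta families and their binding proteins, 2 rose and 2 fell, against 1.02% and 0.566% of all genes. FGF5, a fibroblast growth factor, was at 35.4, 33.1 and 36.5 CPM in control and 18.6, 16.98 and 18.1 CPM in knockdown libraries, close to 2-fold lower and with little spread in either group (log2 fold change -0.97 ± 0.061 SE with edgeR adjusted p = 3.1e-05). IGFBP5, an IGF-binding protein, was among the most abundant transcripts and went from 3641, 3764 and 3752 CPM to 4908, 5271 and 4985 CPM (log2 fold change 0.44 ± 0.091 SE with edgeR adjusted p = 0.039). IGFBP3, another IGF-binding protein, fell from 1320, 1227 and 1175 CPM to 1027, 1035 and 959 CPM (log2 fold change -0.30 ± 0.055 SE with edgeR adjusted p = 0.019), and FGF12, an intracellular FGF-like protein, rose with a log2 fold change of 0.34 with edgeR adjusted p = 0.028. Each of these 3 lost its call in single-library omissions: IGFBP5 in all 6 (adjusted p 0.10 to 0.18), IGFBP3 in all but control library 3 (0.057 to 0.090) and FGF12 in all but knockdown library 3 (0.064 to 0.14). FGF12 was also not called with GC correction (edgeR adjusted p = 0.078) or by DESeq2 (adjusted p = 0.070). With the replicate block the adjusted p of IGFBP5 was 0.086, and FGF2, a fibroblast growth factor picked after its values were seen, was called lower (adjusted p = 0.047, against 0.15 without the block).

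Output genes of the ERK pathway did not move together: of 31 tested, 1 rose and 1 fell, against 1.02% and 0.566% of all genes. KLF6, a zinc finger factor, was at 192, 193 and 177 CPM and 229, 230.5 and 222 CPM (log2 fold change 0.28 ± 0.046 SE with edgeR adjusted p = 0.010). DUSP5, a nuclear ERK phosphatase, was at 78.9, 77.3 and 73.6 CPM and 57.9, 63.5 and 57.97 CPM (log2 fold change -0.36 ± 0.056 SE with edgeR adjusted p = 0.0084). The adjusted p of KLF6 was 0.056 to 0.068 without knockdown library 1 or 2, and that of DUSP5 was 0.051 to 0.055 without control library 2 or knockdown library 1. DUSP5 also lost its call with GC correction (edgeR adjusted p = 0.072).

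MIB1 and RNF168 were among the largest falls outside the p53 lists. MIB1, the ubiquitin ligase that primes Notch ligands for endocytosis, was at 171, 156 and 146 CPM in control and 87.1, 81.4 and 79.3 CPM in knockdown libraries (1.91-fold lower, log2 fold change -0.93 ± 0.078 SE with edgeR adjusted p = 1.9e-04). RNF168, the ligase that marks histone H2A at DNA breaks, was at 74.7, 67.3 and 65.3 CPM and 40.2, 38.6 and 35.2 CPM (log2 fold change -0.86 ± 0.078 SE with edgeR adjusted p = 2.5e-04). In both genes every knockdown library lay far below the lowest control, and both kept their calls in each of the 18 alternative settings.

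Other ubiquitin-linked genes among the lower calls were picked after their values were seen. UBXN4, an adaptor of endoplasmic reticulum-associated degradation, had a log2 fold change of -0.67 with edgeR adjusted p = 3.5e-04. SKP2, the F-box protein that targets p27 for degradation, had -0.47 (edgeR adjusted p = 0.0051). SMURF2, a ligase of TGF-beta receptors and SMADs, had -0.46 (edgeR adjusted p = 0.012), and it lost its call without knockdown library 2 or 3 (adjusted p 0.067 to 0.073).

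The remaining large falls included ESM1, NEGR1, ITGA4 and OXTR. ESM1, an endothelial-type secreted proteoglycan, was at 13.5, 12.2 and 16.04 CPM and then 4.62, 6.02 and 4.53 CPM (log2 fold change -1.46 ± 0.13 SE with edgeR adjusted p = 2.2e-04). NEGR1, a cell adhesion molecule of neurons, was at 14.9, 14.5 and 11.96 CPM and 6.605, 6.28 and 5.24 CPM (log2 fold change -1.19 ± 0.12 SE with edgeR adjusted p = 4.2e-04). ITGA4, an integrin subunit that binds fibronectin and VCAM1, was at 15.97, 13.2 and 14.5 CPM and 8.52, 7.36 and 7.35 CPM (log2 fold change -0.91 ± 0.12 SE with edgeR adjusted p = 0.0039). OXTR, the oxytocin receptor, was almost constant within groups, at 90.7, 89.00 and 88.96 CPM and 58.1, 58.1 and 57.3 CPM (log2 fold change -0.63 ± 0.05 SE with edgeR adjusted p = 1.5e-04).

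Calls of lower certainty in the same direction were PROCR and MEOX1. PROCR, the endothelial protein C receptor, was at 6.86, 6.75 and 5.96 CPM and 3.34, 3.46 and 3.49 CPM (log2 fold change -0.93 ± 0.17 SE with edgeR adjusted p = 0.019). Its adjusted p was 0.070 to 0.095 without any library but control library 3, and 0.058 with the replicate block. MEOX1, a homeobox factor, had a log2 fold change of -0.74 with edgeR adjusted p = 0.010, and adjusted p of 0.062 to 0.065 without control library 2 or knockdown library 1 or 3.

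**Figure D3:**
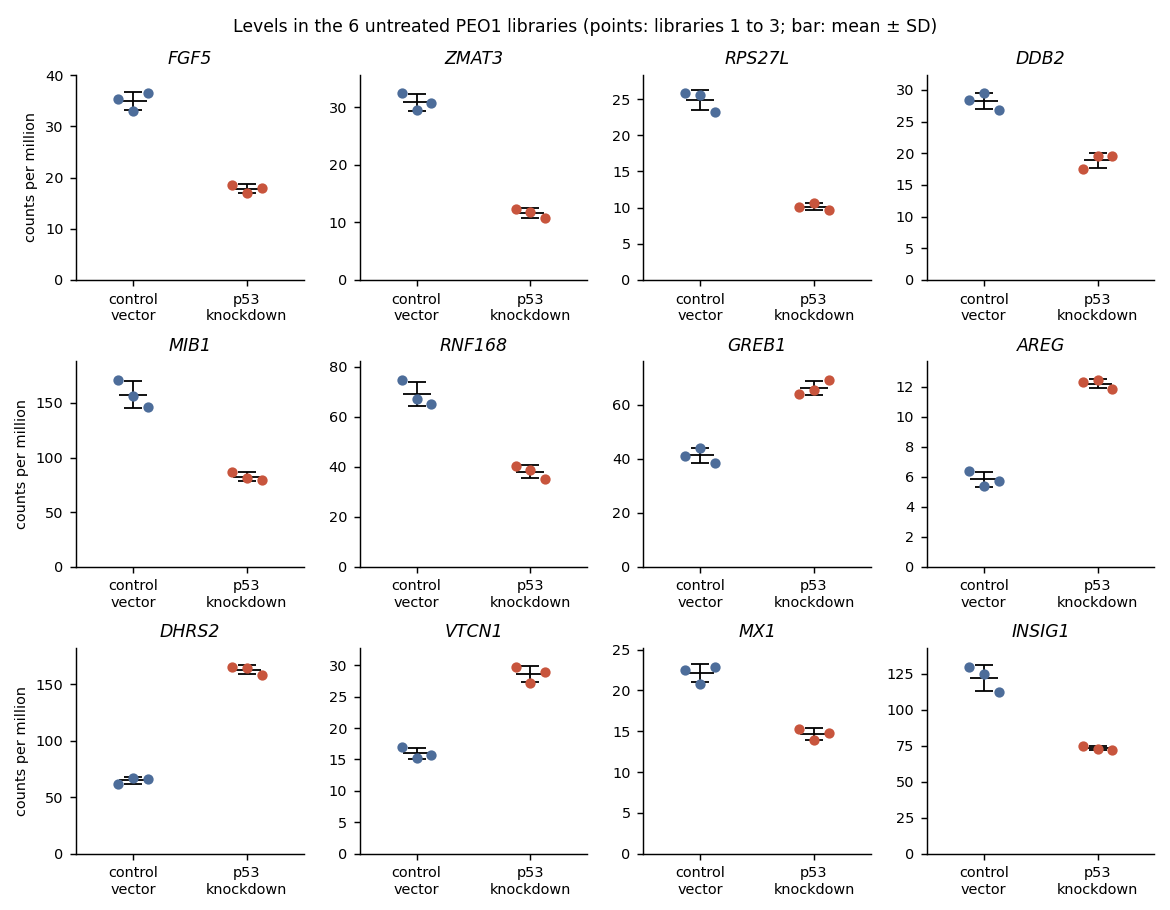
CPM (vertical axis, from 0) of 12 genes in the 3 control-vector (blue) and 3 p53 knockdown (red) libraries; points are libraries and the bar is the mean ± SD. In each panel the groups are separate, with FGF5 at 33.1 to 36.5 CPM in control and 16.98 to 18.6 CPM in knockdown libraries.

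Among the rises, the gene of smallest p was DEPTOR, a binding inhibitor of mTOR. It was at 51.7, 50.2 and 47.2 CPM in control and 106, 102 and 99.3 CPM in knockdown libraries (2.06-fold, log2 fold change 1.04 ± 0.055 SE with edgeR adjusted p = 7.3e-06). BHLHE41, a repressor of the circadian clock, was at 13.7, 11.9 and 11.7 CPM and 33.4, 33.8 and 29.9 CPM (2.600-fold, log2 fold change 1.38 ± 0.077 SE with edgeR adjusted p = 1.0e-05). PEG10, an imprinted gene of retrotransposon origin, was at 122, 118 and 109 CPM and 192, 189 and 184 CPM (log2 fold change 0.70 ± 0.046 SE with edgeR adjusted p = 4.2e-05). HOMER2, a scaffold of postsynaptic glutamate receptors, was at 14.3, 13.4 and 12.3 CPM and 25.9, 26.4 and 24.3 CPM (log2 fold change 0.94 ± 0.074 SE with edgeR adjusted p = 1.5e-04). In each of the 4 the lowest knockdown library was at least 1.5 times the highest control.

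DEPTOR was the 1 called gene of 25 tested mTOR regulators, with a list median of 0.019. BHLHE41 was the 1 called gene of 24 tested clock genes, with a median of 0.075. With the replicate block in untreated cells a second mTOR regulator, the sestrin gene SESN3, was called higher (adjusted p = 0.033, against 0.080 without the block), and it is named after its values were seen. With GC correction 2 mTOR regulators were higher, and 5 clock genes were higher and 1 lower, against 3.32% and 3.04% of all genes.

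TNS4, a focal adhesion protein of epithelia, rose from 25.4, 24.6 and 26.5 CPM to 59.2, 61.2 and 59.99 CPM (log2 fold change 1.24 ± 0.15 SE with edgeR adjusted p = 0.0017). Folds of similar or larger size were also found in genes of low level. GCNT3, a mucin-type glycosyltransferase, was at 1.81, 1.32 and 1.000 CPM and 4.73, 5.15 and 3.57 CPM (3.23-fold, log2 fold change 1.69 ± 0.25 SE with edgeR adjusted p = 0.0065). MGP, a matrix inhibitor of calcification, was at 1.21, 1.24 and 1.73 CPM and 4.17, 4.42 and 4.05 CPM (3.02-fold, log2 fold change 1.59 ± 0.18 SE with edgeR adjusted p = 0.0011). KANK4, an adaptor between adhesions and the cytoskeleton, was at 2.81, 2.34 and 3.04 CPM and 6.42, 5.46 and 6.11 CPM (log2 fold change 1.13 ± 0.20 SE with edgeR adjusted p = 0.018), but its call was lost without any 1 library (adjusted p 0.054 to 0.11).

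SERPINA3, an acute-phase protease inhibitor, had a log2 fold change of 1.18 with edgeR adjusted p = 0.0095, with adjusted p of 0.051 to 0.063 without control library 2 or knockdown library 3. The transcript RP11-212P7.3 had a log2 fold change of 1.56 with edgeR adjusted p = 0.012, and lost its call without control library 1 or 3 or knockdown library 1 or 3 (adjusted p 0.053 to 0.071). Neither reached 4 CPM in any untreated library.

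Among the rises were subunits of the same receptor or channel. GRIN2B, a subunit of NMDA-type glutamate receptors, was at 1.39, 1.59 and 1.54 CPM in control and 4.73, 3.94 and 4.57 CPM in knockdown libraries (2.93-fold, log2 fold change 1.55 ± 0.12 SE with edgeR adjusted p = 1.5e-04). GRIN2A, below, and the kinin receptor, sodium channel and UCA1 genes of the next paragraph were picked after their values were seen. GRIN2A, another NMDA receptor subunit, was at the edge of detection with 8, 8 and 6 counts in control and 22, 17 and 31 counts in knockdown libraries (log2 fold change 1.68 with edgeR adjusted p = 0.013), and its adjusted p was 0.058 to 0.074 without control library 1 or 3.

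The kinin receptors BDKRB1 and BDKRB2, which are neighbours in the genome and bind bradykinin and its metabolites, both rose. BDKRB2 was at 17.9, 16.03 and 17.3 CPM and 29.2, 30.1 and 29.2 CPM (log2 fold change 0.79 with edgeR adjusted p = 0.0012). BDKRB1 was at 9.07, 9.403 and 9.88 CPM and 18.3, 18.4 and 17.6 CPM (log2 fold change 0.94 with edgeR adjusted p = 0.0078). For the neighbouring sodium channel subunits, SCNN1B had a log2 fold change of 0.79 with edgeR adjusted p = 0.0069 and SCNN1G one of 0.59 (edgeR adjusted p = 0.022). SCNN1G lost its call without any 1 library (adjusted p 0.059 to 0.12) and with the replicate block (adjusted p = 0.058). UCA1, a long non-coding RNA first described in urothelial cancer, rose from 138, 125 and 123 CPM to 227, 221 and 207 CPM (log2 fold change 0.76 with edgeR adjusted p = 1.9e-04).

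Of 236 called protein-coding genes that could be placed among 12272 tested ones in the RefSeq gene order, 16 adjacent pairs were both called, and 12 of those pairs moved in the same direction. They include AREG with EREG, BHLHE41 with SSPN, and RPS27L with RAB8B (log2 fold change -0.51). Adjacent genes in opposite directions include FGF5, which fell, and BMP3, which rose from under 1 CPM (log2 fold change 2.15). These pairs were noticed after the values were seen. The share of all adjacent pairs that move in the same direction was not computed, so the 16 and 12 pairs have no background to stand against.

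In bulk libraries, fewer cells of a type and less RNA per cell cannot be told apart, which applies to the cell type markers that follow. Mesenchymal genes gave mixed calls: of 25 tested, 3 rose and 1 fell, against 1.02% and 0.566% of all genes, with a median of 0.041. With the replicate block in untreated cells 1 was higher and 2 lower, and with GC correction 4 were higher and 3 lower. VIM, the intermediate filament vimentin, was at 8.85, 9.45 and 7.96 CPM in control and 18.2, 17.8 and 16.6 CPM in knockdown libraries (2.000-fold, log2 fold change 1.00 ± 0.087 SE with edgeR adjusted p = 2.0e-04). LOXL2, a collagen crosslinking oxidase, was at 3.95, 4.06 and 4.08 CPM and 7.66, 9.66 and 8.97 CPM (log2 fold change 1.12 ± 0.24 SE with edgeR adjusted p = 0.044), and SPARC, a collagen-binding matrix protein, was at 479.5, 483 and 459 CPM and 584, 601 and 561 CPM (log2 fold change 0.30 ± 0.063 SE with edgeR adjusted p = 0.044). Both lost their calls without any 1 library (adjusted p 0.090 to 0.18 for LOXL2 and 0.085 to 0.20 for SPARC) and with the replicate block (0.11 and 0.067). CDH11, a mesenchymal cadherin, fell from 19.2, 17.2 and 18.1 CPM to 13.2, 13.3 and 12.9 CPM (log2 fold change -0.47 ± 0.064 SE with edgeR adjusted p = 0.0042). TGFBI, a matrix protein induced by TGF-beta and picked after its values were seen, was lower with the replicate block (adjusted p = 0.028, against 0.066 without it).

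None of 35 tested epithelial genes was called in the edgeR fit used throughout. At an unadjusted p under 0.05, 3 were higher and 1 lower, and DESeq2 called 1 lower. Other edgeR fits did call members: 5 higher and 1 lower with GC correction, 1 each way with the stricter filter or with only the 6 untreated libraries, and 1 lower without robust estimation. CDH1, which encodes E-cadherin, was at 264, 243 and 237 CPM and 302, 297 and 282 CPM, with separate groups and a log2 fold change of 0.24 with edgeR adjusted p = 0.086. PKP2, a desmosomal plaque protein, was at 192, 187 and 183 CPM and 167, 164 and 162 CPM (log2 fold change -0.19 with edgeR adjusted p = 0.051). With only the untreated libraries the adjusted p was 0.049 for both, and with GC correction it was 0.0026 for CDH1 and 9.2e-04 for PKP2.

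Markers of ovarian carcinoma had the highest median of the 31 lists, 0.26, and of 18 tested 4 rose and none fell, against 1.02% and 0.566% of all genes. DESeq2 called 6 higher and the GC-corrected fit 8, and with a block within each treatment 1 was higher. VTCN1, the B7-H4 immune checkpoint ligand, was at 16.96, 15.2 and 15.7 CPM in control and 29.7, 27.2 and 28.9 CPM in knockdown libraries (1.79-fold, log2 fold change 0.84 ± 0.071 SE with edgeR adjusted p = 1.9e-04). MECOM, a zinc finger oncoprotein, was at 2.596, 2.69 and 2.42 CPM and 5.48, 4.11 and 5.003 CPM (log2 fold change 0.92 ± 0.13 SE with edgeR adjusted p = 0.0051). SLC34A2, the phosphate transporter NaPi2b, was at 2.35, 1.81 and 2.19 CPM and 4.39, 3.16 and 3.85 CPM (log2 fold change 0.84 ± 0.14 SE with edgeR adjusted p = 0.014). KLK6, a secreted kallikrein protease, was at 881, 852 and 876 CPM and 1099, 1119 and 1069 CPM (log2 fold change 0.33 ± 0.06 SE with edgeR adjusted p = 0.019). The adjusted p was 0.051 to 0.11 for KLK6 without any 1 library, and 0.057 to 0.076 for SLC34A2 without control library 2 or 3 or knockdown library 1 or 3. KLK6 also lost its call with GC correction (edgeR adjusted p = 0.073), so the 8 members called there do not include it.

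MUC16, which encodes the CA125 antigen, was not called by edgeR. It was at 69.1, 71.3 and 66.7 CPM in control and 112, 76.00 and 104 CPM in knockdown libraries (log2 fold change 0.50 ± 0.12 SE with edgeR adjusted p = 0.081). Knockdown library 2 lay near the controls, and without it the adjusted p was 0.0038. DESeq2 called the gene higher (adjusted p = 0.015), as did edgeR with GC correction (adjusted p = 0.048).

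Of 67 tested matrix and remodelling genes, 5 rose and 2 fell, against 1.02% and 0.566% of all genes, with a median of 0.052. With GC correction 11 were higher and 5 lower, against 3.32% and 3.04% of all genes. SULF2, a sulfatase that edits heparan sulfate, was at 8.46, 8.08 and 9.81 CPM and 19.9, 18.9 and 21.3 CPM (2.28-fold, log2 fold change 1.19 ± 0.14 SE with edgeR adjusted p = 0.0014). TIMP3, a matrix-bound inhibitor of metalloproteases, was at 5.58, 4.28 and 4.62 CPM and 10.4, 9.92 and 9.89 CPM (log2 fold change 1.06 ± 0.1 SE with edgeR adjusted p = 3.4e-04). LTBP1, which anchors latent TGF-beta in the matrix, was at 37.7, 33.3 and 34.5 CPM and 58.02, 54.7 and 52.7 CPM (log2 fold change 0.65 ± 0.069 SE with edgeR adjusted p = 8.1e-04). Of the other called members, ESM1 is described above, and MMP2 and COL12A1 were named after their values were seen.

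MMP2, the gelatinase A protease, had 1, 5 and 4 counts in control and 23, 22 and 22 counts in knockdown libraries (edgeR adjusted p = 0.011). It was at most 0.221 CPM in untreated and 0.367 CPM in fulvestrant control libraries. It therefore had enough counts to be tested only through the knockdown libraries, and it could be called only as higher. With so few control counts the fitted log2 fold change of 2.72 depends on the prior count of the fit, and the adjusted p was 0.054 to 0.055 without control library 3 or knockdown library 2. COL12A1, a fibril-associated collagen, had a log2 fold change of 0.62 (edgeR adjusted p = 0.0095, and 0.055 to 0.061 without control library 2 or 3 or knockdown library 1).

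Interferon-response genes had mostly negative values: of 53 tested, 47 had a log2 fold change below 0 with a median of -0.11. Of these genes 2 fell and 1 rose, against 0.566% and 1.02% of all genes. At an unadjusted p under 0.05, 14 were lower and 2 higher, against 3.89% and 5.82% of all genes. With GC correction 11 were lower and 2 higher (8 or 9 lower with a replicate block added), whereas DESeq2 called 1 each way. MX1, a GTPase that blocks viral replication, was at 22.5, 20.8 and 22.9 CPM in control and 15.3, 13.9 and 14.8 CPM in knockdown libraries (1.504-fold lower, log2 fold change -0.59 ± 0.071 SE with edgeR adjusted p = 0.0017). OAS2, an oligoadenylate synthetase that senses double-stranded RNA, was at 2.95, 2.34 and 3.31 CPM and 1.99, 1.39 and 1.51 CPM (log2 fold change -0.81 ± 0.17 SE with edgeR adjusted p = 0.044). GBP2, an interferon-induced GTPase, went the other way, at 12.3, 12.4 and 12.6 CPM and 16.1, 16.8 and 15.8 CPM (log2 fold change 0.38 ± 0.081 SE with edgeR adjusted p = 0.046). OAS2 lost its call without control library 1 or 3 or knockdown library 2 or 3 (adjusted p 0.12 to 0.20), and DESeq2 did not call it (adjusted p = 0.086). GBP2 lost its call in 14 of the 18 alternatives. They include each omission of 1 library (0.12 to 0.20), the replicate block (0.10) and DESeq2 (adjusted p = 0.10).

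The summed level of the interferon list was 3249 to 3360 CPM in control and 3106 to 3170 CPM in knockdown libraries, which did not overlap. None of 20 tested MHC class I genes was called by edgeR or DESeq2, 3 were lower at an unadjusted p under 0.05, and with GC correction 3 were lower and 1 higher. Their median was -0.100, with 16 of 20 below 0. PSMB8, an immunoproteasome subunit, was at 40.4, 40.04 and 39.5 CPM and 34.3, 35.4 and 34.6 CPM (log2 fold change -0.20 with edgeR adjusted p = 0.15), and PSME2, a proteasome activator subunit, had a log2 fold change of -0.16 with edgeR adjusted p = 0.28.

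To show what the start regions of 2 members of these lists look like, 280 bases around the annotated start of MX1 and of BHLHE41 are printed from RefSeq (build GRCh38.p14), from 250 bases before the start to 30 after it, 5′ to 3′ on the gene's strand. Capitals in MX1 mark a match to the interferon-stimulated response element, searched on both strands as TTTC, any 2 bases and TTTC, at bases 262 to 271. Capitals in BHLHE41 mark the E-box CACGTG at bases 203 to 208. The MX1 region is chr21:41420308-41420587 on the plus strand and the BHLHE41 region is chr12:26125008-26125287 on the minus strand.
MX1: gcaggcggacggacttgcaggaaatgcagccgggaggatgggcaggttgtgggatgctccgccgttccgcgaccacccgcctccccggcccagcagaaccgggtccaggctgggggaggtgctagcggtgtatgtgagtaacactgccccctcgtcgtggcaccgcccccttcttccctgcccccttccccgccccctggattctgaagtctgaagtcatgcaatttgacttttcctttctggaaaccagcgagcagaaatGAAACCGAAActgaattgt
BHLHE41: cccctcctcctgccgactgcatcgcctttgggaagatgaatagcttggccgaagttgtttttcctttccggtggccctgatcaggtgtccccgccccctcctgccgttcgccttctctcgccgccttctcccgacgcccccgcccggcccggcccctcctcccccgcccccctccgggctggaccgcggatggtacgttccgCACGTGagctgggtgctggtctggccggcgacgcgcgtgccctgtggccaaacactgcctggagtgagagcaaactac
Windows of 300 bases were found for 110 of the 160 higher and 63 of the 89 lower genes. The interferon element was in 3.65% of all 27305 windows and in 2.85% of the 10454 windows of tested genes, in 27 of the 43 windows of the interferon list (62.8%), in 1 of the 63 lower genes (MX1) and in 1 of the 110 higher genes (GLUL). The E-box was in 7.44% of all windows and 9.99% of those of tested genes, in 8 of the higher genes (7.27%) and in 5 of the lower (7.94%). The estrogen response element, searched as GGTCA, any 3 bases and TGACC, and the p53 response element were in 0.066% and 0.029% of all windows and in none of the called genes, which says only that those letters are not in these windows.

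Of 28 tested NF-kB-driven inflammatory genes, 3 fell and none rose, against 0.566% and 1.02% of all genes, with a median of -0.034. With GC correction 4 were lower and 3 higher, against 3.04% and 3.32% of all genes. CD83, an immunoglobulin family surface protein, was at 13.5, 12.5 and 11.9 CPM in control and 7.62, 7.06 and 6.79 CPM in knockdown libraries (log2 fold change -0.82 ± 0.12 SE with edgeR adjusted p = 0.0066). IL32, a cytokine-like protein, was at 21.01, 24.1 and 23.8 CPM and 13.6, 15.98 and 13.8 CPM (log2 fold change -0.67 ± 0.13 SE with edgeR adjusted p = 0.030), and CXCL1, a neutrophil chemokine, was at 37.3, 35.1 and 33.8 CPM and 28.4, 27.4 and 27.6 CPM (log2 fold change -0.35 ± 0.063 SE with edgeR adjusted p = 0.019). IL32 lost its call without any 1 library (adjusted p 0.051 to 0.15) and with the replicate block (0.058), and CXCL1 without any library but control library 3 (0.068 to 0.11).

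INSIG1, the endoplasmic reticulum protein that retains the SREBP activator complex, was the 1 called gene of 28 tested sterol synthesis genes. It was at 129.8, 125 and 112 CPM in control and 75.2, 72.5 and 72.4 CPM in knockdown libraries (1.67-fold lower, log2 fold change -0.74 ± 0.065 SE with edgeR adjusted p = 2.0e-04). The list median was -0.064, and with GC correction 4 members were lower and 2 higher, against 3.04% and 3.32% of all genes.

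None of 21 tested fatty acid synthesis genes was called by edgeR or DESeq2, 4 had an unadjusted p under 0.05, and with GC correction 2 were higher and 1 lower. LPIN1, a phosphatidate phosphatase, had a log2 fold change of 0.12 with edgeR adjusted p = 0.41 and SCD5, a desaturase, one of -0.20 (edgeR adjusted p = 0.42). Of 30 tested hypoxia and glycolysis genes 1 rose, with a median of 0.056, and with GC correction 1 was also lower. The rise was of PFKFB3, which makes the allosteric activator of phosphofructokinase. It was at 51.7, 59.2 and 55.96 CPM in control and 84.5, 92.03 and 87.99 CPM in knockdown libraries (log2 fold change 0.66 ± 0.095 SE with edgeR adjusted p = 0.0052).

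All 13 transcripts of the mitochondrial genome had values above 0, with a median of 0.23, but none was called by edgeR or DESeq2, and 4 had an unadjusted p under 0.05. MT-ND4, a complex I subunit, was at 653, 546 and 581 CPM and 793, 649 and 744 CPM (log2 fold change 0.30 with edgeR adjusted p = 0.32). MT-ND2, another, was at 123, 98.98 and 103 CPM and 164, 121 and 124 CPM (log2 fold change 0.33 with edgeR adjusted p = 0.36). In both genes the groups overlapped, but each knockdown library was above the same-numbered control. With GC correction and the replicate block in untreated cells 3 of the 13 were higher, MT-ND2 among them (adjusted p = 0.012). None of 52 tested nuclear genes of the respiratory chain was called by edgeR or DESeq2 or reached an unadjusted p under 0.05, though 1 was lower with GC correction. They include COX5A (log2 fold change 0.12) and SDHD (-0.17), subunits of complexes IV and II.

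**Figure D4:**
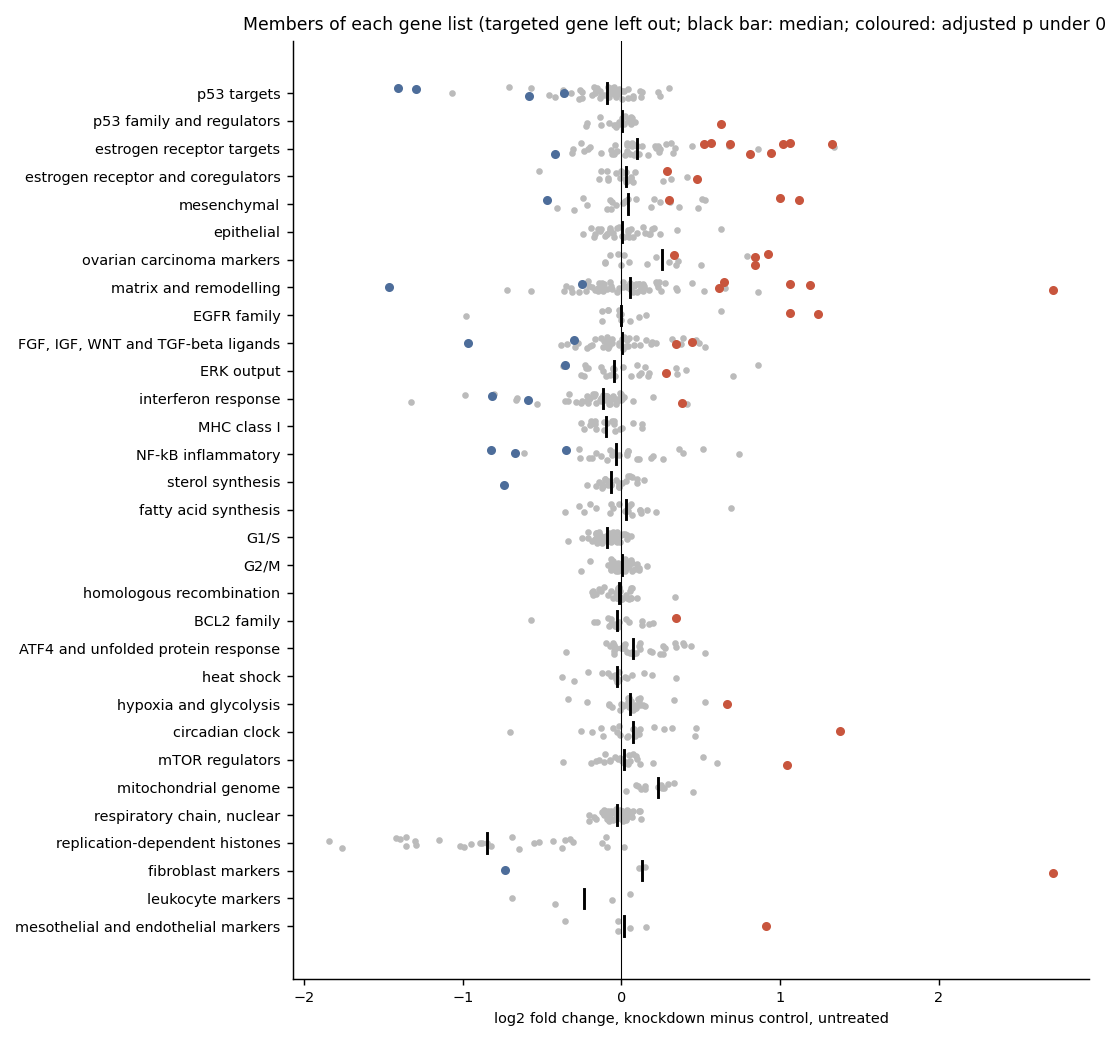
Log2 fold change of knockdown over control (horizontal axis) for the tested members of each of 31 gene lists (rows), without the targeted gene; the black bar is the list median and coloured points are called genes. Most medians lie near 0, ovarian carcinoma markers and mitochondrial transcripts lie to the right, and replication-dependent histones lie far to the left with no called member.

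Of 48 tested G1/S genes, 43 had values below 0 with a median of -0.090, and their summed level was 5050 to 5103 CPM in control and 4717 to 4739 CPM in knockdown libraries. None was called by edgeR or DESeq2, and 4 were lower at an unadjusted p under 0.05. With GC correction 10 of the 48 were lower and none higher, against 3.04% of all genes lower in that fit (6 or 9 lower with a replicate block added). E2F8, a repressor of the E2F family, was at 43.6, 42.4 and 42.8 CPM and 38.02, 37.1 and 38.1 CPM (log2 fold change -0.19 with edgeR adjusted p = 0.19), and POLD3, a polymerase delta subunit, had a log2 fold change of -0.21 with edgeR adjusted p = 0.26. With GC correction both were called (adjusted p = 0.022 and 8.2e-04). The 39 tested G2/M genes had a median of 0.0031 and no call by either tool, with 1 at an unadjusted p under 0.05 and 1 lower with GC correction. KIF20A, a mitotic kinesin, had a log2 fold change of -0.26 with edgeR adjusted p = 0.23 (0.0085 with GC correction) and CCNB2, a mitotic cyclin, one of 0.10 (edgeR adjusted p = 0.64).

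None of 34 tested homologous recombination genes was called by edgeR, with 1 at an unadjusted p under 0.05, 1 higher by DESeq2, and 1 higher and 2 lower with GC correction. RBBP8, the end-resection factor CtIP, was at 122, 112 and 107 CPM and 151, 141 and 139.9 CPM with separate groups (log2 fold change 0.34 with edgeR adjusted p = 0.059), and FANCG, a Fanconi core protein, had a log2 fold change of -0.16 with edgeR adjusted p = 0.55. Of 20 tested BCL2 family genes 1 rose, and with GC correction 1 was also lower. BCL2L11, the pro-apoptotic BH3 protein BIM, was at 73.96, 66.97 and 68.3 CPM and 95.8, 86.8 and 83.3 CPM (log2 fold change 0.35 ± 0.063 SE with edgeR adjusted p = 0.020), and its adjusted p was 0.070 to 0.12 without control library 2 or 3 or knockdown library 1 or 2.

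The 36 tested genes of the ATF4 and unfolded protein response had 26 values above 0, a median of 0.071 and no call by edgeR or DESeq2, with 9 higher at an unadjusted p under 0.05 and 5 higher with GC correction. SLC3A2 and SLC7A11, amino acid transporter subunits, had log2 fold changes of 0.34 and 0.40 (edgeR adjusted p = 0.16 and 0.13). The 18 tested heat shock genes had no call by either tool, with 2 at an unadjusted p under 0.05 and 2 lower with GC correction. CRYAB, a small heat shock protein, was at 135, 128 and 125 CPM and 155, 147 and 143 CPM (log2 fold change 0.19 with edgeR adjusted p = 0.084, and 0.041 with the replicate block), and CHORDC1, an HSP90 co-chaperone, had a log2 fold change of -0.21 with edgeR adjusted p = 0.28.

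Replication-dependent histone transcripts, which mostly lack a poly(A) tail, had the lowest median of any list at -0.85, with 28 of 29 tested members below 0. None was called by edgeR or DESeq2, 8 were lower at an unadjusted p under 0.05, and 1 was lower with GC correction. All were scarce: their summed level was 42.2 to 66.4 CPM in control and 25.8 to 48.4 CPM in knockdown libraries, so the groups overlapped. HIST1H3B was at 0.711, 1.104 and 0.808 CPM and 0.263, 0.0433 and 0.397 CPM (edgeR adjusted p = 0.10), and HIST1H4H at 1.49, 1.63 and 1.000 CPM and 0.488, 0.736 and 0.993 CPM (edgeR adjusted p = 0.19).

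Many markers of other cell types had too few counts to be tested, but not all were scarce. In control libraries the summed level was 230 to 235 CPM for fibroblast, 59.7 to 63.8 CPM for leukocyte and 93.4 to 165 CPM for mesothelial and endothelial markers. In knockdown libraries it was 253 to 257, 58.1 to 62.7 and 116 to 164 CPM. Most of each sum came from members not named here. Of 12 fibroblast markers 4 were at 0 counts in all 6 libraries and 4 were tested, of which MMP2 rose and FAP fell. As described above, MMP2 was tested only through its knockdown libraries and could be called only as higher. FAP, a fibroblast activation protease, was at 6.97, 6.58 and 6.38 CPM in control and 4.35, 4.16 and 3.49 CPM in knockdown libraries (log2 fold change -0.73 ± 0.11 SE with edgeR adjusted p = 0.0066). Of 12 leukocyte markers 5 were at 0 and 4 were tested, with none called by either tool and 1 at an unadjusted p under 0.05. ITGAM, an integrin of myeloid cells, stayed under 0.8 CPM (edgeR adjusted p = 0.50), as did LYZ, the lysozyme gene (edgeR adjusted p = 0.89). Of 6 tested mesothelial and endothelial markers 1 rose, CALB2, the calcium-binding protein calretinin, which was at 13.8, 13.95 and 13.5 CPM and 24.96, 26.8 and 25.7 CPM (log2 fold change 0.91 ± 0.072 SE with edgeR adjusted p = 1.5e-04).

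The fulvestrant libraries gave a second comparison of the same 2 lines, and so of the same hairpin, that shares no sample with the untreated one. There 1103 of 15715 genes were called (7.02%), of which 672 were higher (4.28%) and 431 lower (2.74%). Of the 249 genes called in untreated cells, 239 had the same sign under fulvestrant (155 of the higher and 84 of the lower genes), and 189 were called in the same direction (123 higher, 66 lower). The share of all tested genes with the same sign in both comparisons was not computed. Those 189 are 75.9% of the untreated calls and 17.1% of the fulvestrant calls.

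Named genes called the same way in both sets include the p53 targets ZMAT3 (log2 fold change -1.41 untreated and -1.29 under fulvestrant), RPS27L (-1.29 and -1.37) and DDB2 (-0.58 and -0.95). MIB1 (-0.93 and -0.82) and RNF168 (-0.86 and -0.99) fell in both. BHLHE41 (1.38 and 1.56), VTCN1 (0.84 and 1.23), VIM (1.00 and 1.11) and GRIN2B (1.55 and 1.59) rose in both. CDKN1A, not called in untreated cells, was called lower under fulvestrant (log2 fold change -0.72 with edgeR adjusted p = 0.0067), and MUC16 was called higher (0.95 with edgeR adjusted p = 0.0010).

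Other differences of untreated cells did not pass the test under fulvestrant, although for these genes the change in effect did not pass its own test. AREG was at 3.03, 2.54 and 2.46 CPM in control and 2.76, 3.35 and 2.91 CPM in knockdown libraries under fulvestrant (log2 fold change 0.17 with edgeR adjusted p = 0.47). MX1 had a log2 fold change of -0.16 with edgeR adjusted p = 0.21 and SULF2 one of 0.33 (adjusted p = 0.21). Among estrogen receptor targets, MYBL1 had 0.057 (edgeR adjusted p = 0.76) and SLC7A2 -0.39 (adjusted p = 0.070). CA12 narrowly missed the threshold (1.04 with edgeR adjusted p = 0.052), and AGR2 was called higher in both sets (0.94 and 1.32). Of the 51 tested targets, 5 were called higher and 4 lower under fulvestrant, against 4.28% and 2.74% of all genes. Their median was -0.067, so the mostly upward calls of untreated cells were not repeated there. The fulvestrant libraries differ from the untreated ones in drug, time and possibly estradiol together, which cannot be told apart here.

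**Figure D5:**
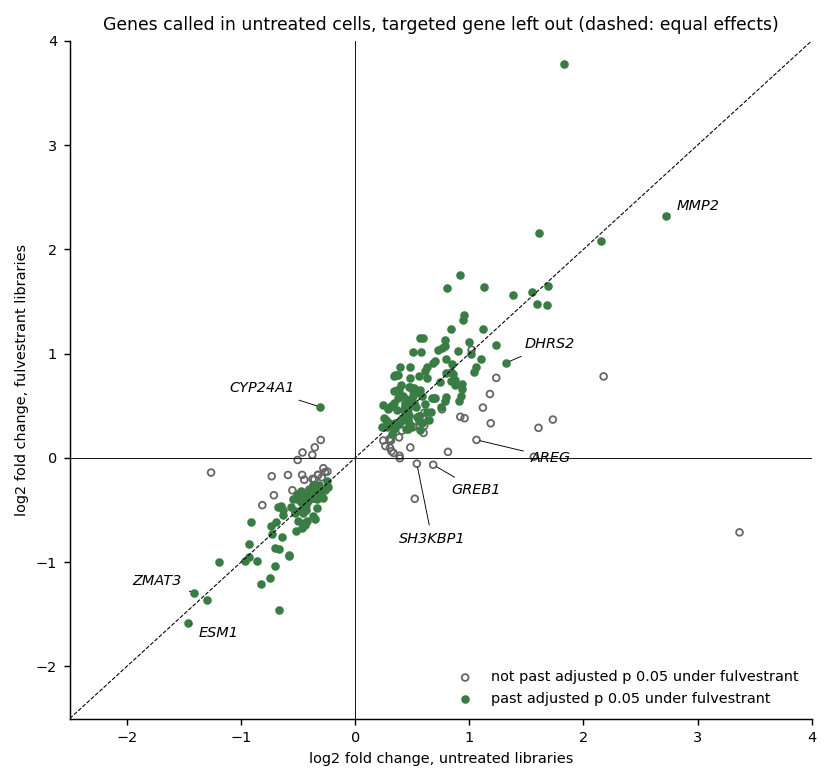
Log2 fold change of knockdown over control in the fulvestrant libraries (vertical axis) against that in the untreated libraries (horizontal axis) for the 249 genes called in untreated cells, of which the targeted gene is not drawn; filled points are also called under fulvestrant and the dashed line marks equal effects. Most points lie near the dashed line, 239 of 249 share a sign, and GREB1, SH3KBP1, AREG and CYP24A1 lie off the line.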

How the data were processed

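RNA was sequenced in 12 libraries of PEO1 cells, 3 in each of 4 groups, and the 6 untreated ones are compared here. The deposited table holds expected counts per gene, estimated by the authors with RSEM 1.3.3 and, as its values show, given as whole numbers without normalization. Bowtie2, cutadapt and MultiQC and the build GRCh37/hg19 are named in the submitters' processing notes; strand setting and annotation release were not given in the sources used here. A further 6 columns of per-sample values were not used. The total per untreated library was 22741703 to 28481541 expected counts, and scaling factors were 0.984 to 1.0016. Precision for scarce genes is limited by their own few counts.

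Counts were rounded (no value changed) and fitted in R 4.3.3 with edgeR 4.0.16: TMM scaling, filterByExpr, 1 mean per group over all 12 libraries, robust quasi-likelihood test, Benjamini-Hochberg threshold 0.05. SE is approximate, from the size of the log2 fold change over the root of the F statistic. DESeq2 1.42.0, another scaling, other filters, a GC correction, a replicate block and single-library omissions were tried as alternatives. The fit was tested on simulated counts. Within untreated cells, deviations of same-numbered libraries from their group means correlated at 0.884, 0.129 and 0.815 over 10251 genes. The numbers were treated as pairing those libraries in a block fit, although libraries 2 barely correlated, so this pairing is uncertain. That pairing comes from the data and not from the labels, and control library 2 correlated more with knockdown library 3 (0.614). Under fulvestrant the same-numbered libraries correlated at 0.765, -0.774 and -0.894, and control library 3 correlated most with knockdown library 2 (0.932). The number therefore does not pair the fulvestrant libraries. A fit with a block for the untreated numbers, chosen after this was seen, is quoted where it changes a call.

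Named genes are CDKN1A, MDM2, ESR1, GREB1, VIM, CDH1, MUC16 and PAX8, the 14 largest rises and 14 largest falls among called genes with mean log2 CPM of at least 1 and separate groups, the 5 of smallest p in each direction, up to 4 called members of each list (or the 2 of smallest p where none is called), up to 6 called genes whose effect differed under fulvestrant, and RPS27 beside RPS27L. The targeted gene and some other genes of this rule are not reported here. The comparison and the 31 lists were chosen with earlier results of these data known. Promoter windows and gene order come from RefSeq GRCh38.p14.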

Additional observations from a re-analysis of the deposited data

Results flagged for a closer look

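In 4 of 15715 genes (0.0255%) the knockdown effect under fulvestrant differed from that in untreated cells by edgeR's test of the difference itself. GREB1 rose in untreated cells, but under fulvestrant it was at 5.82, 6.03 and 5.82 CPM in control and 5.696, 5.28 and 5.92 CPM in knockdown libraries, so that both lines were low and overlapped (difference of log2 fold changes -0.75, adjusted p = 0.048). SH3KBP1, an adaptor of receptor endocytosis, was at 67.7, 65.6 and 67.00 CPM in control and 97.8, 100.4 and 93.2 CPM in knockdown libraries untreated, and at 54.6, 55.8 and 56.1 CPM and 52.2, 54.2 and 53.8 CPM under fulvestrant (difference -0.60, adjusted p = 0.027). Its rise was therefore seen in untreated cells, and under fulvestrant the difference was small and did not pass the test (log2 fold change -0.056 with edgeR adjusted p = 0.49).

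CYP24A1, the enzyme that inactivates vitamin D, had opposite calls: it was at 49.9, 47.5 and 53.8 CPM in control and 40.7, 40.1 and 41.4 CPM in knockdown libraries untreated, and at 58.6, 51.6 and 59.1 CPM and 77.8, 80.3 and 79.4 CPM under fulvestrant (difference 0.80, adjusted p = 0.028). Its untreated fall (log2 fold change -0.31 ± 0.065 SE with edgeR adjusted p = 0.044) was lost without any 1 library (adjusted p 0.065 to 0.19) and with the replicate block (adjusted p = 0.060). CDH6, a kidney-type cadherin also expressed in ovarian carcinoma, was at 31.01, 28.7 and 28.4 CPM and 25.03, 24.9 and 24.02 CPM untreated and at 55.1, 55.4 and 60.9 CPM and 74.6, 72.8 and 73.4 CPM under fulvestrant (difference 0.62, adjusted p = 0.048). The number of such genes is not stable: it was 0 or 1 after leaving out any untreated library and 45 by DESeq2.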

How the results depend on the processing

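No followed value changed sign together with its call: over 110 genes and 18 alternatives, 1675 values kept their side of the threshold, 246 lost the call, 53 gained one and 0 reversed. In untreated cells, leaving out 1 library gave 126 to 189 calls (76 to 138 higher, 41 to 66 lower). With the replicate number as a block over all 12 libraries 145 genes were called (95 higher, 50 lower), with a replicate block within each treatment 82 (50 and 32), and with a replicate block in untreated cells 219 (140 and 79), of which 200 were among the 249. GC correction gave 999 (522 and 477), GC correction with the block over all 12 libraries 699 (374 and 325), and GC correction with the block in untreated cells 855 (448 and 407). Without a filter 195 genes were called, and with a stricter one 333. The fulvestrant calls were 620 and 525 with the first 2 blocks, and 3120, 2634 and 2903 with the 3 GC fits. Blocks over all 12 libraries or within each treatment also apply the number to the fulvestrant libraries. There same-numbered libraries 2 and 3 correlated negatively (-0.774 and -0.894), so these blocks do not match a pairing in those libraries. For the difference of effects (4 called, 1171 at an unadjusted p under 0.05 in edgeR), the count was 0 without a filter (1157 unadjusted), with the block over all 12 libraries (914), within treatment (1087) and in untreated cells (1280), 2 without robust estimation, 57 with the stricter filter, 574, 356 and 442 with the 3 GC fits, 45 by DESeq2, and 0 to 1 without a library. The causes were not tested. Of 29 list medians 13 changed sign in some alternative. All 13 were within 0.05 of 0 as reported, and over the alternatives they ranged from -0.229 to 0.254. Scarce genes such as MMP2 are limited by depth.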
